A study of Mus musculus with 8 samples.

Results

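Genomic interval probes are microarray probes whose deposited name is a stretch of chromosome rather than a gene, for example chr19:5834117-5835940 followed by the letter R. Members were all non-control probes named by an interval on chromosomes 1 to 19, and there were 15617 of them among the 55681 non-control probes of the array. They fell into 4432 names and 3390 distinct intervals, with a median of 3 probes and at most 10 probes per name. No name carried a lincRNA prefix, and 577 further interval probes on chromosome X lay outside the rule. Intervals are given in mm9, the mouse build named in the file headers, and the closing letter F or R is read here as the forward or reverse strand, which the files do not spell out. The intervals ranged from 62 to 7128487 bases, with a median of 7451 bases. A total of 1042 intervals had probes with both letters, 1189 had only F, 1156 only R, and 3 intervals had no letter. When overlapping intervals were merged, 2126 separate loci remained. Probes of 1 interval share a target, and probes of overlapping intervals can, so neither are replicates of a condition.

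Many intervals of this kind on expression arrays were placed over long intergenic non-coding RNAs. These are transcripts made and often spliced like messenger RNA but with no long reading frame, and they are known for low levels and for tissue-restricted expression. Several of them stay in the nucleus, where they are found near chromatin or in nuclear bodies, and others act in the cytoplasm on messenger RNA. An interval name states only a position, so no transcript or gene is assigned to any probe here.

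The study measured RNA of whole mouse kidney on 1-colour Agilent arrays, with 4 control and 4 cinacalcet arrays. Controls were 12-week-old male mice on standard chow. Treated mice, also male and 12 weeks old, received cinacalcet HCl for 5 days at 1 mg per g body weight, the dose as the labels state it. Cinacalcet is a drug that activates the calcium-sensing receptor, which in kidney is known for its part in calcium reabsorption by the thick ascending limb. No strain or engineered allele is named in the labels, all kidneys were snap frozen, and each sample is 1 array on a single slide. The labels do not say that each array came from a separate mouse, so the p-values reflect only how far these samples vary, which may be technical. In whole tissue, fewer cells of a type and less RNA per cell cannot be told apart.

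All 8 kidney markers, among them Umod of the thick ascending limb and Slc34a1 of the proximal tubule, were above background on every array. None of the 4 Y-linked genes measured was above background on control 4, cinacalcet 2 and cinacalcet 3, although the labels call every animal male, while at least 3 of the 4 genes were above background on the other 5 arrays. On the first principal component of the interval probes, which held 45.6% of their variance, controls 1 to 3 lay between -25.91 and -18.81, control 4 at 6.76, cinacalcet 1 and 4 at 2.11 and 4.59, and cinacalcet 2 and 3 at 24.05 and 27.58. The signals of the 5 erythroid markers, relative to the array's 75th percentile, were summed and the sum was then taken as log2. This sum, mostly that of the bright Hba-a1, was 8.99 to 9.51 in controls and 6.65 to 8.33 with cinacalcet. The same sum for 4 measured macrophage and dendritic markers of 5 listed was 4.86 to 5.00 against 4.23 to 4.62, for 5 fat markers 5.16 to 6.83 against 4.13 to 5.58, and for 4 neutrophil markers 6.84 to 7.23 against 7.22 to 7.28. The neutrophil sum is mostly that of the bright Csf3r, a growth factor receptor. S100a8 lay at -2.63 to -1.31 against -1.02 to -0.14 and S100a9 at -0.81 to 0.37 against 1.12 to 1.72. Both are calcium-binding proteins of granulocytes. Retnlg lay at -5.98 to -3.66 against -2.85 to -2.08, and was above background on only 1 control. Among 3 adrenal markers, whose sum was -3.81 to -3.12 against -3.36 to -2.44, Star, the cholesterol carrier of steroid synthesis, was above background on all 8 arrays, Cyp11a1, the side-chain cleavage enzyme, on 1 cinacalcet array and Cyp11b1, a steroid hydroxylase, on none. The part of these cell markers in the results below was not tested. The number of arrays limits the precision of every value.

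Most interval probes gave little signal in kidney, although 2095 of the 3390 intervals (61.8%) had at least 1 tested probe. Of 15607 usable interval probes, 5383 (34.5%) were well above background on at least 4 of the 8 arrays, the condition for testing, against 60.8% of all other probes. On all 8 arrays the figure was 4163, and 8138 interval probes (52.1%) were above background on none. Per array, the share above background ran from 30.6% on control 2 to 40.5% on cinacalcet 4, and the groups overlapped. The levels used below are log2 intensities minus the array's 75th percentile, so that 0 is the brightness of an upper-quartile probe and each unit is a doubling. On this scale the median level of the kept interval probes was -2.56, against 0.10 for the other kept probes.

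A few intervals were among the brightest signals of the array. Probe A_30_P01031754 in chr19:5801802-5802597, lettered R, was the brightest, with levels of 9.87, 10.02, 10.04 and 10.21 on the controls and 9.95, 10.04, 10.06 and 9.94 with cinacalcet. A second probe of that interval, A_30_P01028215, lay between 8.18 and 8.47 on all arrays. The groups overlapped for both, and their log2 differences were -0.04 ± 0.09 (SE) and 0.00 ± 0.09. The other 4 of the 6 brightest probes lay in chr14:78924115-78938125 F, chr17:48068261-48087905 F, chr12:73838608-73862621 R and chr17:17481706-17482457 R, at single-array levels from 7.93 to 8.64. Their log2 differences ran from -0.11 to 0.07, and none of the 6 passed the test (limma adjusted p 0.499 to 0.986). Probes of 1 interval could differ widely in level. In chr14:78924115-78938125 F, the interval with the widest spread, one probe averaged 8.43 and another -4.01, a range of 12.44, and the median range within a name with at least 2 kept probes was 1.56.

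Cinacalcet and control kidneys differed at 332 of the 5383 tested interval probes (6.17%), of which 266 were higher and 66 lower with cinacalcet. The test was limma's, fitted on all 29732 kept probes, with Benjamini-Hochberg adjustment over all of them and an adjusted p under 0.05. Over all kept probes the same test called 6.04%, with 3.4% higher and 2.64% lower, so the share of interval probes called was close to the background. By direction, 4.94% of interval probes were higher and 1.23% lower. Higher probes made up 80.1% of those changed among intervals, 50.9% among the 1463 changed other probes and 43.9% among the 1134 changed probes with a RefSeq messenger RNA accession. The median log2 difference over all tested interval probes was 0.08, against -0.01 for the others. Groups did not overlap at 764 interval probes (14.2%, 574 higher and 190 lower), against 16.8% of all kept probes. At least a 2-fold difference was seen at 92 of the changed probes (27.7%), 76 higher and 16 lower, against 291 of the changed other probes (19.9%), 131 higher and 160 lower.

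Among changed interval probes, rises outnumbered falls at each level of signal. From the dimmest group, with mean levels of -6 to -4, to those between 0 and 2, between 75% and 82.8% of changed interval probes were higher, against 49.3% to 60.2% of changed other probes. Among the brightest, above 2, it was 5 of 8 interval probes (62.5%) against 43.6% of 330 others. Over all tested probes of that brightest range no excess was seen. There 40.5% of 301 interval probes had a positive difference, against 41.3% of other probes, and the median log2 difference was -0.05 in both. The split depended on background correction. After normexp correction with an offset of 50, 208 interval probes (3.86%) were called, 136 higher and 72 lower (65.4% higher). Over all 29732 kept probes that fit called 1874, against 1795 in the main fit. In that fit the median log2 difference was -0.01 over all tested interval probes and -0.02 over the other probes. All 332 changed probes kept their sign there and 156 of them passed, but their median absolute log2 difference was 0.31 instead of 0.75.

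**Figure D1:**
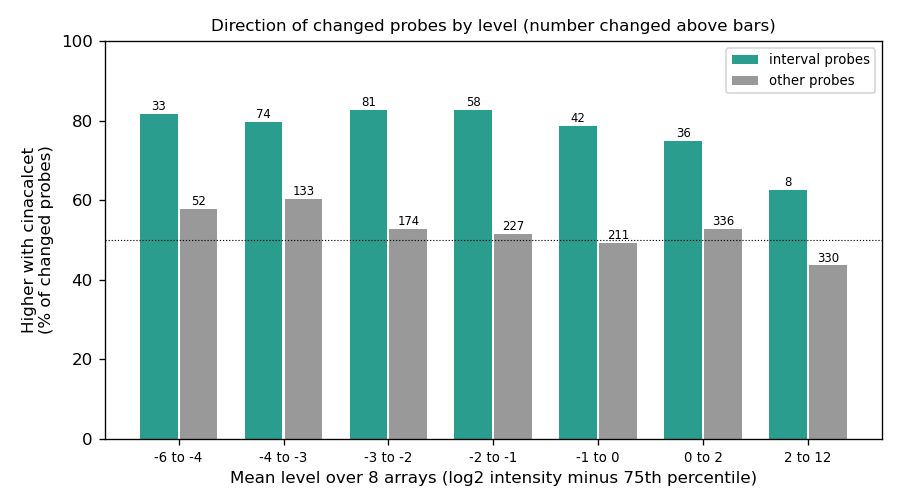
Bars give the percentage of changed probes that were higher with cinacalcet (y axis) in 7 ranges of mean level over the 8 arrays (x axis, log2 intensity minus 75th percentile), for interval probes and other probes, with the number of changed probes above each bar. The interval bars lie above the other bars in every range, from 82.8% at -2 to -1 to 62.5% above 2.

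How many interval probes were called depended on single arrays, and so did the count over all 29732 kept probes. Without control 2, 41 (0.762%) were called, without control 3, 58 (1.08%), and without control 1, 107 (1.99%), whereas 848 (15.8%) were called without control 4. Over all kept probes these fits called 230, 316, 474 and 5371. Leaving out cinacalcet 3, 2, 4 or 1 gave 69, 72, 138 or 255 interval probes. Over all kept probes it gave 387, 372, 716 or 1505. In all 8 of these fits between 75.4% and 86.1% of the called interval probes were higher, and 36 of the 332 probes, 28 of them higher, passed every one. Of the 46 changed probes among the 67 named by rule, 18 passed every one, and the fewest passed without control 3 (20) and control 2 (21). When the presence of Y-linked signal was entered as a block, 489 interval probes (9.08%, 383 higher) were called, with 331 of the 332 among them. Over all kept probes 3284 were called with that block. In that fit with treatment and Y-linked signal together, the term for Y-linked signal, which 3 arrays lack, called 7.32% of interval probes and 11.1% of all kept probes. With the row of the slide as a block 235 interval probes (4.37%) were called, and 1370 over all kept probes. Within row 1 and within row 2, each with 2 arrays a group, and with the column as a block, limma called none, with 1203, 446 and 1260 interval probes at an unadjusted p under 0.05.

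**Figure D2:**
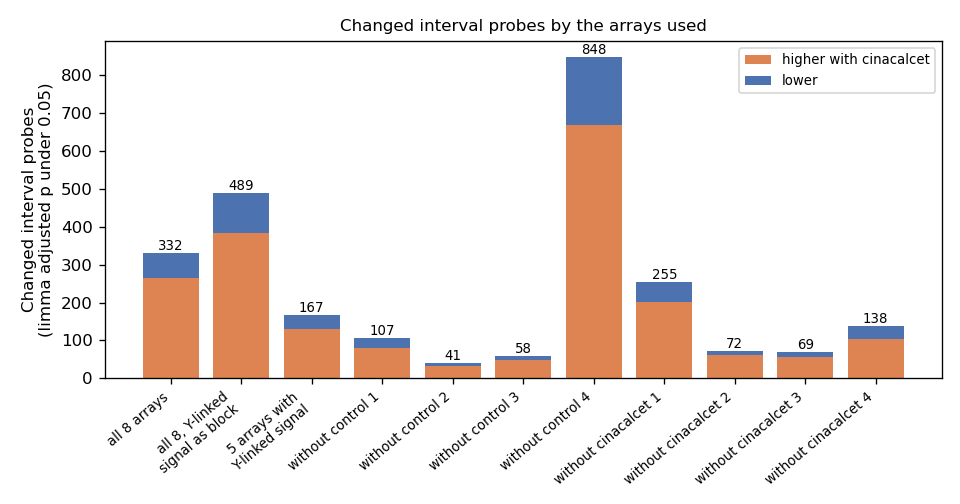
Stacked bars give the number of interval probes changed at a limma adjusted p under 0.05 (y axis), higher or lower with cinacalcet, for all 8 arrays, after blocking on Y-linked signal, for the 5 arrays that have it, and with each array left out. The count runs from 41 without control 2 to 848 without control 4, and higher probes are the larger share in every bar.

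Among the rises, chr19:5834117-5835940 R stood out, with signal above background on every array and all 3 of its kept probes about 4-fold higher. Probe A_30_P01029006 had levels of -2.78, -3.27, -3.13 and -2.43 on the controls and -1.23, -0.48, -0.27 and -0.83 with cinacalcet. All cinacalcet arrays lay above all controls, with cinacalcet 2 and 3 highest, and the log2 difference was 2.20 ± 0.25 (SE, limma adjusted p = 0.0105). It passed whichever array was left out, while the interval's other probes passed in 3 and 5 of the 8 fits, and it was 2.03 on the 5 arrays with Y-linked signal (limma adjusted p = 0.0321). The other probes, A_30_P01019037 and A_30_P01025818, differed by 2.10 and 2.00, and by 1.85 (limma adjusted p = 0.063) and 1.76 on the 5 arrays. After normexp correction the 3 differences were 1.08, 1.43 and 1.28, and all passed. Within the 34139 bases that also hold the brightest interval, chr19:5801802-5802597 R, 6 probes of names inside it were kept, of which these 3 were changed. A wider interval that spans both, chr19:5771425-5848475, had 11 kept probes, none of them changed, with log2 differences from -0.16 to 1.08. Of these, 10 were lettered F, the opposite letter, with a mean log2 difference of -0.06. The 1 lettered R was the one at 1.08.

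The largest measured difference among the rises was in chr5:31856417-31916317 F, an interval of 59901 bases. Probe A_30_P01023387 failed the background flag on every control, at -5.70, -5.76, -5.10 and -4.47, and was above it on all cinacalcet arrays, at -3.22, -2.76, -2.24 and -3.07. Its measured log2 difference was 2.44 ± 0.32 (SE, limma adjusted p = 0.0121), and against the lowest signal above background the rise was at least 3.19-fold. It passed with each array left out, but met the condition for testing only through its cinacalcet arrays. A further 2 probes of the interval rose by 1.90 and 1.76, and probes A_30_P01026907 and A_30_P01030209 of the overlapping chr5:31856417-31916414 F by 1.22 and 1.67. A bright probe in each of the pair did not follow, with mean levels of 3.12 and 3.33 and log2 differences of -0.05 and -0.11 (limma adjusted p 0.799 and 0.476). Over this stretch 13 interval probes were kept and 6 rose, with log2 differences from -0.11 to 2.44. The first probe differed by 0.47 after normexp correction (limma adjusted p = 0.0396).

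Outside these intervals, 4 probes that rose had a measured log2 difference above 2, from low control levels, and in 3 of them at most 1 control was above background. Probe A_30_P01027830 in chr15:10697243-10699102 F lay at -4.19, -5.54, -5.70 and -6.61 on the controls and -3.70, -2.70, -3.55 and -2.55 with cinacalcet. The groups came close, control 1 being nearest to the treated arrays, and the log2 difference was 2.38 ± 0.50 (SE, limma adjusted p = 0.0354). A_30_P01022510 in chr10:96103732-96103867 F was above background everywhere, at -3.35, -3.71, -3.25 and -2.47 against -1.67, -0.22, 0.20 and -2.05, a difference of 2.26 ± 0.52 (SE, limma adjusted p = 0.0451). Cinacalcet 2 and 3 were the high arrays of that probe. A_30_P01021105 in chr15:74507625-74519200 F was above background on no control and on all cinacalcet arrays, at -6.50, -6.51, -6.04 and -6.17 against -4.11, -4.07, -3.97 and -4.60. It had the tightest groups of these 4, a log2 difference of 2.12 ± 0.17 (SE, limma adjusted p = 0.0105), and a bound of at least 1.24-fold. A second probe of that interval, A_30_P01021449, differed by 0.12 and did not pass (limma adjusted p = 0.534). The last, A_30_P01031939, is described with its opposite strand below. Of these 4, A_30_P01021105 passed in all 8 fits with 1 array left out, A_30_P01027830 and A_30_P01022510 in 3 each, and A_30_P01031939 in 2. After normexp correction these 4 differed by 0.17 to 1.02 and none passed (limma adjusted p 0.0718 to 0.201).

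Neighbouring intervals on chromosome 2 rose together. In chr2:79521628-79521871 F, probe A_30_P01025744 was above background on no control, at -5.56, -6.36, -5.35 and -5.55, and on every cinacalcet array, at -3.71, -3.73, -3.67 and -3.73. The treated arrays were nearly equal, the log2 difference was 2.00 ± 0.20 (SE, limma adjusted p = 0.0105), and the rise was at least 1.72-fold. Immediately beside it all 3 kept probes of chr2:79517813-79518321 F rose, by 0.99, 1.00 and 1.08. Its probe A_30_P01031932 lay at -0.73, -0.57, -0.50 and -0.21 on the controls and 0.37, 0.52, 0.84 and 0.57 with cinacalcet, without overlap. It differed by 0.84 after normexp correction (limma adjusted p = 0.00578) and passed with each array left out.

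A longer stretch near the end of the same chromosome held further rises. Between 174943325 and 176302925 on chromosome 2, a window drawn after the values were seen, 18 interval probes were kept, 15 had a positive difference and 10 rose, while none fell. In chr2:175640275-175701875 F all 3 probes rose. Its probe A_30_P01019686 lay at -1.80, -2.07, -1.79 and -1.87 on the controls and -0.99, -0.92, -0.71 and -0.85 with cinacalcet, a log2 difference of 1.02 ± 0.10 (SE, limma adjusted p = 0.0105). Both probes of chr2:176264400-176302925 F rose, by 1.05 and 0.95, and the 2 probes of chr2:174945941-174946507 R by 0.87 and 1.02. Whether probes of these intervals can bind each other's transcripts was not examined, because their sequences were not used here. Elsewhere on the chromosome, 2 of the 7 kept probes of chr2:157361470-157379813 R rose, by 1.95 and 1.93, each with cinacalcet 2 and 3 as the highest arrays. Each of these 2 passed in 3 of the 8 fits with 1 array left out.

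**Figure D3:**
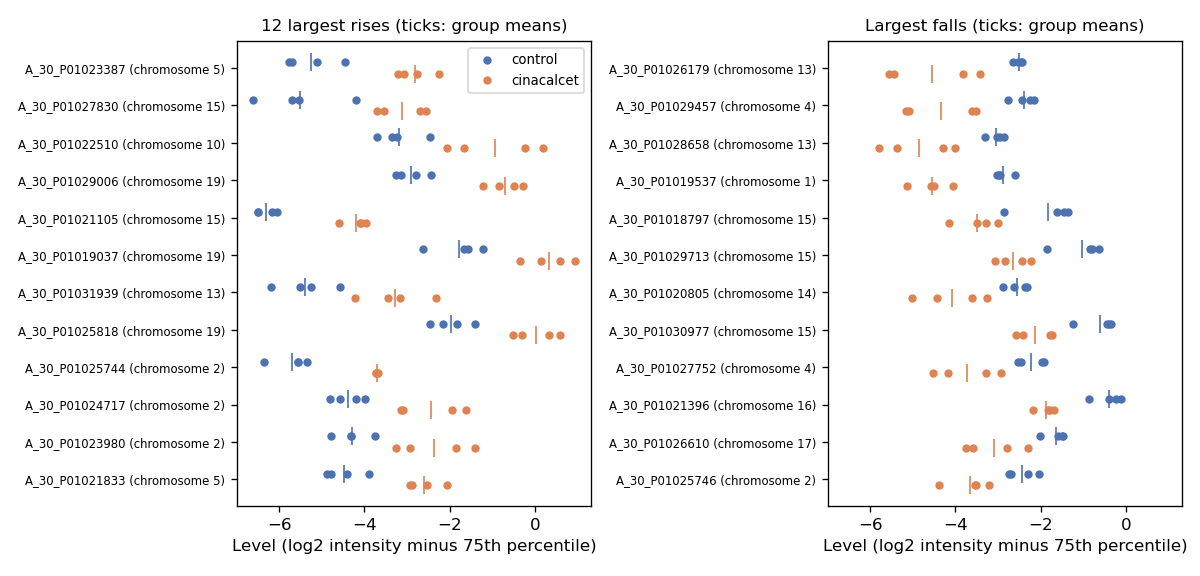
Points give the level of each array (x axis, log2 intensity minus 75th percentile), with ticks at group means. The probes are the 12 largest rises and 12 largest falls among changed interval probes without overlap, with the chromosome beside each name. The cinacalcet points lie right of all control points in the left panel and left of them in the right panel, and control 4 lies lowest among controls for the 3 chromosome 15 probes that fell.

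Several intervals rose at every probe kept, with smaller differences and tighter groups. In all, 1350 names had at least 2 kept probes, and in 831 (61.6%) of them every probe had the same sign. A change was called in 177 of these names, 147 of which had 1 sign throughout, and in 28 names every kept probe was changed, 22 higher and 6 lower. In chr17:56687541-56694616 R all 4 probes rose, by 0.93 to 1.16. Probe A_30_P01026224 there lay at -1.84, -1.90, -1.94 and -1.64 on the controls and -0.92, -0.82, -0.60 and -0.67 with cinacalcet, a log2 difference of 1.08 ± 0.10 (SE, limma adjusted p = 0.0105). In chr1:161992257-161992963 F, 707 bases long, all 3 probes rose by 0.79 to 0.96 and each passed with any array left out. The first of them, A_30_P01025615, lay between -1.18 and -0.89 on the controls and between -0.25 and -0.18 with cinacalcet.

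All 5 probes of chr13:34693404-34717987 R rose, by 0.61 to 1.81, and so did all 5 of chr16:34524589-34573439 R, by 0.46 to 1.04. Another name inside the latter, chr16:34559623-34560462 R, had 3 of 3 probes higher by 0.81 to 0.90, so that 8 of 9 kept probes of that stretch rose. In chr6:31007184-31007725 R the 3 probes rose by 1.53 to 1.60. Its probe A_30_P01028933 lay at -0.92, -0.93, -0.82 and -0.38 on the controls and 0.16, 1.18, 1.48 and 0.53 with cinacalcet, and cinacalcet 2 and 3 were again the high arrays. The 3 probes of chr1:133839368-133839762 F rose by 1.19 to 1.62, and the 3 of chr8:19792940-19798868 F, among the brighter changed intervals at mean levels of 2.29 to 3.57, by 0.41 to 0.45.

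Other intervals were mixed. In chr17:85418489-85427364 F, 3 of 6 kept probes rose, by 0.65, 0.99 and 1.12. The remaining 3 were brighter, and differed by 0.37, 0.42 and 0.46 without passing (limma adjusted p 0.124 to 0.200). In chr6:93029101-93031007 F, A_30_P01022704 and A_30_P01018938 rose by 1.46 and 1.15, while A_30_P01019343 had a larger difference of 2.19 ± 0.59 (SE) that did not pass (limma adjusted p = 0.0667), nor with any array left out, and cinacalcet 3 at -1.39 stood far above the other treated arrays. One interval, chr6:129151512-129208737 R, was changed in both directions. Its 3 dim probes A_30_P01017646, A_30_P01018888 and A_30_P01028919 rose by 0.93, 0.96 and 0.88. The brighter A_30_P01022593, A_30_P01025159 and A_30_P01027568 fell by 0.44, 0.43 and 0.46 on the log2 scale. Neither set of 3 had overlapping groups, and this was the only one of 186 loci with a change that held both directions, against 145 with rises only and 40 with falls only.

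**Figure D4:**
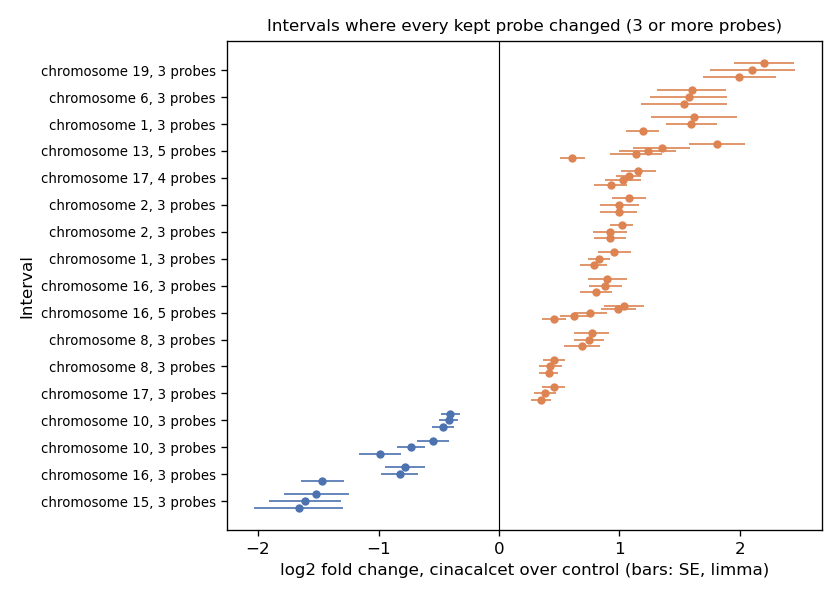
Points give the log2 fold change (x axis, cinacalcet over control, bars SE from limma) of each probe in the intervals with at least 3 kept probes that were all changed, labelled by chromosome (y axis). Probes of 1 interval lie on the same side of 0, from about 2 on chromosome 19 to -1.66 on chromosome 15.

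The falls were fewer, and among those without overlap between groups the largest were on chromosomes 13, 4, 1 and 15. In chr13:9185198-9185778 F, probe A_30_P01026179 lay at -2.44, -2.46, -2.65 and -2.52 on the controls and -3.83, -5.43, -5.55 and -3.42 with cinacalcet. Its controls were nearly equal and cinacalcet 2 and 3 were lowest, at a measured log2 difference of -2.04 ± 0.47 (SE, limma adjusted p = 0.0454). Only 2 of its 4 cinacalcet arrays were above background, as for 4 more of the 12 largest falls, so the size and order of these falls rest in part on values near the floor. Over the 5 arrays with Y-linked signal, which leave out cinacalcet 2 and 3, the difference was -1.11 (limma adjusted p = 0.0403). A second probe, A_30_P01028658, was also lowest on cinacalcet 2 and 3 and fell by 1.83 on the log2 scale. Each of these 2 probes passed in 3 of the 8 fits with 1 array left out. In chr4:101040523-101080248 F both kept probes fell, by 1.95 and 1.51 on the log2 scale, again lowest on cinacalcet 2 and 3. They passed in 3 and 2 of those fits. The erythroid marker Hbb-bt, a beta globin, was likewise lowest on cinacalcet 2 and 3, at 7.17, 7.28, 7.10 and 6.72 on the controls and 5.68, 4.12, 3.75 and 4.59 with cinacalcet, whereas Slc4a1, the band 3 anion exchanger of red cells and intercalated cells, lay at 2.33 to 2.97 and 2.57 to 3.04. The part of these markers in the falls was not tested.

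Overlapping and adjacent intervals on chromosome 1 fell together. Between 175653557 and 175717250, a window drawn after the values were seen, all 11 kept interval probes had a negative difference and 8 were called, all of them R. Probe A_30_P01019537 of chr1:175653557-175671940 lay at -2.98, -3.02, -2.60 and -2.95 on the controls and -4.04, -5.13, -4.50 and -4.57 with cinacalcet, a log2 difference of -1.67 ± 0.22 (SE, limma adjusted p = 0.0115). Controls and treated arrays were well apart, and the probe passed with each array left out. In chr1:175705225-175717250 4 probes fell by 0.85 to 0.91 on the log2 scale, and the brightest of them, A_30_P01024163, averaged 0.83 on the controls and -0.03 with cinacalcet.

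On chromosome 15 all 3 kept probes of chr15:38205154-38206196 F fell, by 1.66, 1.61 and 1.52 on the log2 scale. They passed in 1, 3 and 3 of the 8 fits with 1 array left out. Probe A_30_P01030977 lay at -0.44, -0.35, -0.39 and -1.25 on the controls and -1.73, -2.59, -2.40 and -1.77 with cinacalcet. Control 4 stood apart from the other controls toward the treated arrays, and the difference was -1.52 ± 0.27 (SE, limma adjusted p = 0.0240). The brown fat marker Ucp1 was highest on control 4, at 3.57 against -0.93 to 0.54 on the other controls and -5.66 to -3.92 with cinacalcet. Only 2 of the 4 cinacalcet arrays were above background for Ucp1, so its treated range lies near the floor. The fat markers Cidea, Adipoq, Plin1 and Fabp4 were also highest on control 4, but their groups overlapped. On cinacalcet 2 they lay at 3.06, 2.18, 0.59 and 5.06, within their control ranges. The part of these markers here was not tested. In chr16:86770170-86874921 R all 3 kept probes fell, by 1.47, 0.82 and 0.78 on the log2 scale. For its probe A_30_P01021396 the levels were -0.39, -0.12, -0.23 and -0.87 against -1.69, -1.77, -2.18 and -1.83. Further falls past 2-fold included those of A_30_P01020805 in chr14:20894857-20902507 R, by 1.53, and A_30_P01025746 in chr2:155298877-155303251 F, by 1.23 on the log2 scale. In the latter interval 2 other probes differed by -0.04 and -0.20. A_30_P01021396 passed in all 8 fits with 1 array left out, A_30_P01020805 in 2 and A_30_P01025746 in 1.

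Detection itself separated the groups at few intervals. There were 29 interval probes above background on all cinacalcet arrays and no control, 16 of them changed, and 1 with the opposite pattern, against 38 and 7 among other probes. The cinacalcet-only pattern held for 0.186% of usable interval probes and 0.0949% of 40043 usable others. Probes of either pattern met the condition for testing only through the group where they were high. Their calls and p-values are therefore no separate support for that direction, which holds also for A_30_P01021105 and A_30_P01025744 above. Among the 4 brightest of the 29 was A_30_P01023387, described above. A_30_P01032252 in chr9:71687805-71689542 R lay at -5.08, -4.17, -4.80 and -4.74 on the controls and -3.06, -2.93, -2.54 and -3.19 with cinacalcet. All treated arrays were clear of the controls, and the rise was at least 2.93-fold (limma adjusted p = 0.0105 for a measured log2 difference of 1.77 ± 0.21, SE). In chr13:48576557-48581632 R and chr8:129102060-129109035 R the rises were at least 1.97-fold and 1.98-fold. The single probe seen in controls alone was A_30_P01026943 in chr17:45524689-45525320 R, which averaged -3.99 and -5.18 and was at least 1.59-fold lower with cinacalcet (limma adjusted p = 0.0279); it is named because it was the only one.

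Both letters of an interval seldom changed together. Kept probes of F and R were found for 442 intervals, in 256 (57.9%) of which their mean log2 differences had the same sign. Across these 442 intervals the correlation of the F and R differences was 0.21, a description over points that share arrays and depth, and the median gap in level between the letters was 1.37. A change was called on at least 1 letter in 72 intervals and on both in 7, all of them rises on both. Those 7 included chr13:34693404-34717987, with 5 R probes and 1 F probe changed, and chr10:5950116-5958250, at 0.84 on F and 0.82 on R. With probes above background on all 8 arrays only, 328 intervals remained, 186 (56.7%) with the same sign, and the correlation was 0.28.

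The largest differences between letters were seen in 4 intervals. In chr13:53100475-53113850, the F probe A_30_P01032168 lay at -3.10, -3.44, -3.32 and -3.29 on the controls and -2.32, -1.66, -1.62 and -0.94 with cinacalcet, and rose by 1.65 ± 0.25 (SE, limma adjusted p = 0.0168). Its companion A_30_P01031939 rose by 2.10, while the R probe A_30_P01028667 lay between -1.25 and -0.79 on all arrays, with overlapping groups and a difference of 0.14 ± 0.14 (SE). In chr17:84470764-84486339 the R probes A_30_P01026610 and A_30_P01029869 fell by 1.46 and 0.84 on the log2 scale, and the F probe differed by 0.33 (limma adjusted p = 0.402). Its R probes A_30_P01026993, A_30_P01027576 and A_30_P01028308 differed by -1.685, -1.652 and -1.277, with overlapping groups, and did not pass (limma adjusted p 0.07145 to 0.1021). No probe passed in the remaining intervals. In chr4:56480568-56658018 the R probe A_30_P01022913 lay at -7.08, -6.52, -6.57 and -2.19 on the controls and -5.50, -1.97, -1.91 and -4.83 with cinacalcet. Its 3 high arrays were control 4 and cinacalcet 2 and 3, the 3 with no Y-linked signal, and the difference between treatments was 2.04 ± 1.26 (SE, limma adjusted p = 0.344). In chr12:76744947-76778372 the R probe A_30_P01031995 was lowest on cinacalcet 2 and 3, at -5.56 and -5.78, against -2.97 to -2.42 on the other 6 arrays.

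**Figure D5:**
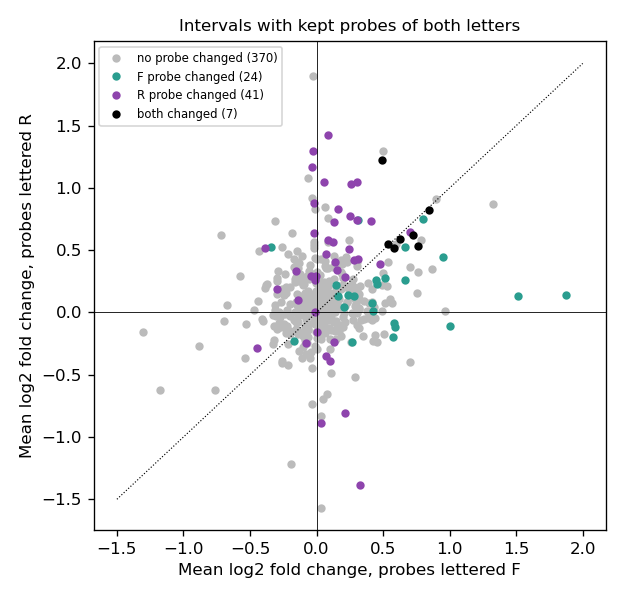
Each of the 442 points is an interval, placed by the mean log2 fold change of its F probes (x axis) and of its R probes (y axis), coloured by which letter held a changed probe, with a dotted line at equality. Points with both letters changed lie in the upper right, and points with 1 letter changed extend mainly along the axis of that letter.

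Changed intervals were spread over all 19 chromosomes. The share of kept probes that was changed ran from 4.0% on chromosomes 3 and 11 to 11.2% on chromosome 13, with 8.99% on chromosome 2 and 8.37% on chromosome 10. On chromosomes 8, 9, 11 and 19 every changed probe was higher (20, 11, 11 and 8 probes), and chromosome 15, with 6 rises and 8 falls, was the only one with more falls. Probes lettered F were changed in 5.46% and R in 6.82%, with 80.6% and 79.8% of these higher. By interval length, 7.85% of probes were changed in intervals under 1000 bases, 6.46% from 1000 to 10000 bases, 4.99% from 10000 to 50000 bases and 7.5% above. These are counts of probes, of which several share an interval, and no difference between chromosomes, letters or lengths was tested.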

How the data were processed

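RNA of whole mouse kidney was read on 8 arrays of 1 slide, each with 62976 spots. The authors deposited 1-colour scanner tables with processed spot intensity, background-subtracted by the scanner software, Agilent Feature Extraction 11.0.1.1 per the file headers and 9.5 per the submitters' processing notes. The deposited flags mark outlier spots and spots well above background. Between 118 and 147 outlier spots per array were set to missing, no spot was saturated, spots of a probe were averaged as log2, and each array's 75th percentile (intensity 202.93 to 257.14) was subtracted. From 51.83% to 57.95% of spots were above background. Probes that passed the background flag on 4 or more of 8 arrays were fitted with lmFit and eBayes (limma 3.58.1, R 4.3.3), checked on simulated data, without covariates, and adjusted over all kept probes. A fold of at least N sets the bright group's mean against, per dim array, the higher of its lowest signal above background and the probe's own.

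Probes were named by rule: the 12 largest rises and 12 largest falls among changed probes without overlap, the 6 brightest, up to 6 intervals with repeated calls, 4 intervals with the largest difference between letters, and up to 4 all-or-none probes. Others are named as examples of a count and were chosen after their values were seen. Members and lists were chosen with earlier results of these data known. Alternatives were other scalings, normexp (on the median spot signal), other filters, variance models, blocks, interval means and leaving out each array. One of the marker lists examined is not reported here.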

Additional observations from a re-analysis of the deposited data

Results flagged for a closer look

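Among the named probes 134 groups of 4 arrays were examined for 1 array far from the other 3, and 9 stood out; chance gives about 1 in 20 groups. Control 4 was that array 5 times. In chr15:38205154-38206196 F it lay at -1.86 for A_30_P01029713 (other controls -0.83 to -0.63) and at -1.25 for A_30_P01030977 (-0.44 to -0.35). In chr6:93029101-93031007 F it was above the others at -3.74 for A_30_P01018938 (-4.57 to -4.46). It was below them at 1.66 for A_30_P01030322 in chr17:85418489-85427364 F (2.33 to 2.43), and above at -2.19 for A_30_P01022913 in chr4:56480568-56658018 R (-7.09 to -6.52).

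On the treated side, cinacalcet 1 was low for the bright A_30_P01021243 at 7.99 (8.28 to 8.33) and for A_30_P01028667 at -1.23 (-0.87 to -0.80). Cinacalcet 3 was high for A_30_P01019343 at -1.39 (-3.87 to -3.49), and cinacalcet 4 for A_30_P01031390 at -2.11 (-2.60 to -2.55).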

How the results depend on the processing

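Of the 46 changed probes among the 67 named, none turned its direction under any alternative; 46 passed under quantile scaling, 32 after normexp correction, 28 with only the 5 arrays that have Y-linked signal, and 18 with every array left out in turn. The main count was 332 changed interval probes, 80.1% of them higher. It was 355 with quantile scaling, 327 with the median of detected probes as scale, 320 and 384 with stricter filters, 359 with trend and robust variance, 235 with the slide row as a block and 489 with Y-linked signal as a block. It moved to 208 (65.4% higher) after normexp, 318 (74.5%) after normexp and quantile scaling, 43 with no filter, where 15607 interval probes were tested, 1122 (73.5%) with array weights, 167 when arrays lacking Y-linked signal were dropped, and 147 of 2537 when the probes of a name were averaged. Over all 29732 kept probes the main count was 1795, with 1874 after normexp and 230 to 5371 with single arrays left out. The interval count ranged from 41 to 848 with single arrays left out, at 75.4% to 86.1% higher. Within slide row 1, within row 2 and with the slide column as a block it was 0, with 1203, 446 and 1260 at an unadjusted p under 0.05; fewer residual degrees of freedom are part of these fits. The cause of the other moves was not tested.

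Replicate numbers showed no clear pairing of the samples. The deviations of arrays with the same number from their group means correlated at 0.267, -0.404, -0.27 and -0.487, and 1 of 8 arrays correlated best with its own number. Whether samples were paired cannot be settled from these values, because the split by Y-linked signal also enters the deviations. With the replicate block, limma called 0 interval probes, with 1155 at an unadjusted p under 0.05. Adjustment over the interval probes alone was not run. Interval probes are mostly dim, and an offset added before the log reduces log2 differences most at dim probes. The part of this in the counts after normexp correction was not tested.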
